A study of Homo sapiens with 12 samples.

Results

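The nuclear-encoded subunits of the respiratory chain and of ATP synthase were followed in A549 cells, a line grown from a human lung adenocarcinoma. Members were taken by name from the protein-coding genes of the deposited tables: names beginning NDUFA, NDUFB, NDUFC, NDUFS or NDUFV with a number, the 4 SDH genes, UQCR genes, CYC1, COX4 to COX8 genes and ATP5 genes. The rule used no measured value and took 90 of 19986 annotated protein-coding genes, among 60617 genes in all. Of these, 37 belong to complex I, 4 to complex II, 10 to complex III, 19 to complex IV and 20 to ATP synthase. NDUFA4 and its relative NDUFA4L2 were placed with complex IV, where the NDUFA4 protein is found.

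The respiratory chain of the inner mitochondrial membrane passes electrons from NADH (complex I) and succinate (complex II) through coenzyme Q to complex III, then by cytochrome c to complex IV, which reduces oxygen. Complexes I, III and IV pump protons, and ATP synthase uses the gradient to make ATP. Complex II is encoded wholly in the nucleus, whereas the other complexes also need subunits made from mitochondrial DNA, so that transcripts of both genomes have to be matched. Several complex IV and ATP synthase subunits have isoforms from separate genes, some of them restricted to muscle, lung or testis.

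The study asked what the immune checkpoint receptor BTLA does inside tumour cells. RNA was sequenced from 12 libraries in 2 separate experiments. In the knockdown, 3 libraries came from cells given a BTLA shRNA (shBTLA) and 3 from control cells (shControl), which per the study's methods carry the empty lentiviral vector, both under puromycin; which of the study's BTLA shRNAs was sequenced is not given in the sources used here. In the sort, A549 cells were stained with a BTLA antibody and separated into 3 BTLA low and 3 BTLA high libraries, and whether RNA was taken before or after the culture of sorted cells that the study describes is not stated in the sources used here. No library belongs to both experiments. Nothing in the labels says that replicates were separate cultures, and p-values therefore cover only differences between libraries of a group, possibly technical ones.

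Depth was 29130357 to 42488067 reads per library, recovered as whole reads from the deposited values and expressed as reads per 1000000 reads of the library (RPM). BTLA had 0 reads in 10 of 12 libraries and 2 reads in shControl 3 and in BTLA high 3, where 0 reads allow up to 3 reads, counting error only, so its reads cannot check the groups' labels. All 10 epithelial and A549 markers were detected in every group, led by KRT8, while at least 4 of 8 lymphocyte markers were at 0 in each group, CD3D, CD3E and CD2 among them. shControl 1 and BTLA low 2 stood apart, with the lowest ribosomal protein shares of their experiments, and values without them are given beside some of the results.

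Almost every standard subunit gene was transcribed in these cells. Of 90 genes, 82 had at least 10 reads in at least 3 of 6 libraries in the knockdown and 83 in the sort. The genes not tested were isoforms, a subunit-like gene and readthrough genes. COX6A2, COX7B2, COX8C and the readthrough NDUFC2-KCTD14 had 0 reads in all 12 libraries. COX4I2, the lung isoform of COX4, had at most 4 reads in a library, the readthrough ATP5MF-PTCD1 at most 3, the g-subunit-like gene ATP5MGL at most 10 and the testis isoform COX6B2 at most 18, with enough reads for a test in the sort only.

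Levels between genes were compared per kilobase of the reference (MANE Select) transcript, as the mean of the 12 libraries. COX4I1, the ubiquitous form of the subunit whose lung isoform was near 0, was the highest with 951 RPM per kilobase, followed by COX6B1 with 904 and the catalytic ATP synthase subunit ATP5F1B with 582. Medians over standard subunits were 220 RPM per kilobase for complex IV, 125 for ATP synthase, 89.4 for complex III, 67.2 for complex I and 46.6 for complex II. The muscle isoform COX7A1 stood at 1.18 RPM per kilobase. NDUFA4L2, whose gene is inducible by hypoxia, stood at 1.97 RPM per kilobase. Within every complex the levels spanned a wide range, and in complex I they ran between 0.693 (NDUFA7) and 436 RPM per kilobase (NDUFB11).

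The lowest standard subunits need a limit beside them. NDUFA7, NDUFV2 and NDUFA13 had 0.693, 1.104 and 1.90 RPM per kilobase and encode parts of complex I, and SDHA, the flavoprotein of complex II, had 4.65 against 100 for SDHB. Other annotated genes cover 100% of the span of NDUFA7, 99.7% of that of NDUFV2, 96.3% of that of NDUFA13 and 99.9% of that of SDHA. In all, 56 of the 90 genes overlap another gene, 17 of them over more than 99% of their span, and 45 have a pseudogene that carries their name. Whether the counting used strand or kept reads that overlap several genes is not given in the sources used here, so reads of these genes and of their overlapping partners cannot be told apart. The 149 pseudogenes whose names match the same pattern held reads equal to only 0.0936 to 0.151% of the members' reads.

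In the sort, CYC1 of complex III had the smallest p among the respiratory genes and was lower in BTLA low cells. CYC1 encodes cytochrome c1, the heme subunit that hands electrons from complex III to cytochrome c. CYC1 had 358, 327 and 360.0 RPM in BTLA low cells, against 494, 483 and 429.9 RPM in BTLA high cells. All 3 BTLA low libraries lay below all 3 BTLA high libraries. The log2 difference was -0.43 ± 0.08 (SE; limma adjusted p = 0.00495), 0.743 of the BTLA high mean. No other annotated gene overlaps CYC1, which lies on chromosome 8 of GRCh38 from 144095039 to 144097525 (+ strand). CYC1 passed in each of 15 alternative settings, with adjusted p between 2.02e-06 and 0.0379.

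Of the other genes, 2 fell and 1 rose. ATP5MC1, 1 of 3 genes that encode the identical mature subunit c of the ATP synthase ring, had 197, 156 and 196 RPM in BTLA low cells, against 258, 286 and 210.2 RPM in BTLA high cells. It lies on chromosome 17 of GRCh38 from 48892765 to 48895871 (+ strand), 100% of it within the span of the annotated gene SUMO2P17 on the other strand. Its log2 difference was -0.45 ± 0.13 (limma adjusted p = 0.0309). UQCR11, a small accessory subunit of complex III, had 19.9, 17.4 and 19.9 RPM in BTLA low cells, against 24.0, 29.5 and 22.4 RPM in BTLA high cells. It lies on chromosome 19 from 1597169 to 1605473 (- strand), 99.7% of it overlapped by AC005943.1 on the same strand, and its log2 difference was -0.40 ± 0.13 (limma adjusted p = 0.0485). For both genes reads of the overlapping gene cannot be told apart, as stated above. Their groups did not overlap, but UQCR11 lost its call in 10 of 15 alternatives and ATP5MC1 in 8 of 15. Without BTLA low 2, adjusted p was 0.0796 for ATP5MC1 and 0.128 for UQCR11.

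NDUFV2, an iron-sulfur subunit of the NADH-oxidising end of complex I, was higher in BTLA low cells, but at a very low level. It had 1.97, 1.40 and 1.42 RPM in BTLA low cells, against 0.765, 0.73 and 0.506 RPM in BTLA high cells, which is 46 to 58 reads against 16 to 31 reads per library. The log2 difference was 1.15 ± 0.27 (limma adjusted p = 0.0138). It lies on chromosome 18 from 9102630 to 9134345 (+ strand) and shares 99.7% of its span with AP005899.1, AP005263.1 and NDUFV2-AS1, so the reads that remain cannot be assigned with confidence to the subunit's own transcript. Without BTLA low 1 its adjusted p was 0.0547.

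**Figure D1:**
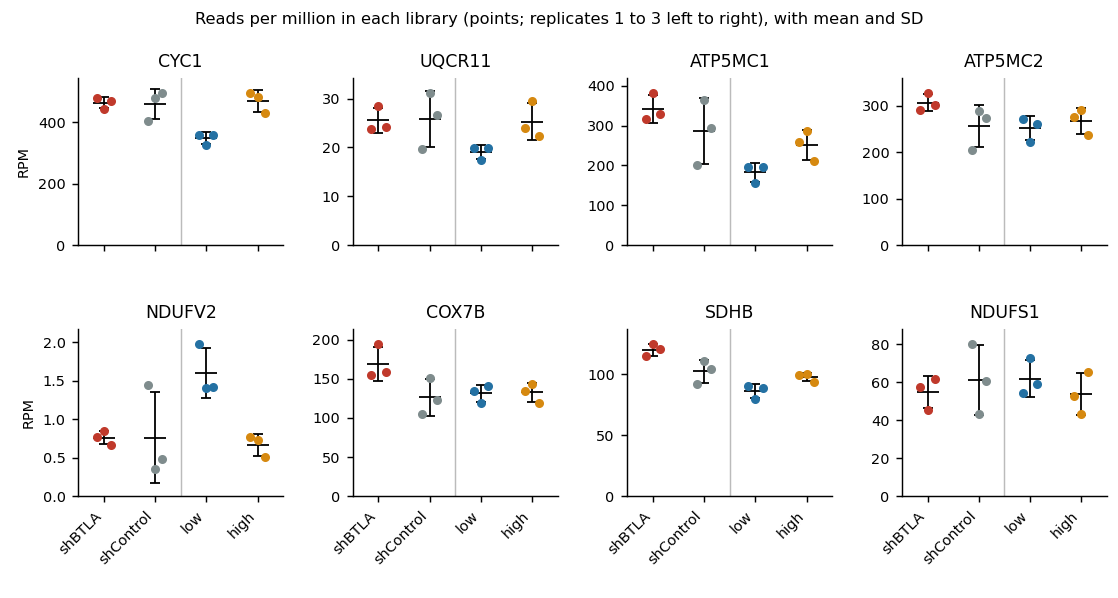
RPM (linear axis from 0) of 8 genes in the 12 libraries, shBTLA, shControl, BTLA low and BTLA high from left to right. Points are libraries, and the black mark and bar are the mean and SD of 3 libraries. CYC1, UQCR11 and ATP5MC1 lie lower in every BTLA low than in every BTLA high library, while NDUFV2 lies higher at 1.40 to 1.97 RPM.

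The 4 genes called were 1 of 83 higher and 3 of 83 lower, 4.82% of those tested. Among all 16911 genes tested in the sort 25.4% were called, 19.1% higher and 6.25% lower. The count was 18 without BTLA high 3, beside 35.9% of all genes in that fit, and 2 without each of the other libraries. For the fits without those other libraries the share of all genes was not counted. At an unadjusted p under 0.05, 1 was higher and 13 were lower, beside 28.8% and 9.99% of all genes. The split of all genes depended on scaling: 3238 rose and 1057 fell in RPM scaled to the read total, and 2054 rose and 2238 fell when the median gene of each library was equalised. With that scaling 1 of 83 respiratory genes was higher and 15 were lower, beside 12.1% and 13.2% of all genes.

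The position of the set as a whole was below 0. Log2 differences were below 0 for 67 of 83 genes (80.7%), beside 32.0% of all genes tested. Their median was -0.11, beside 0.18 for all genes, a distance of -0.29. The medians were -0.11 for complex I, -0.09 for complex II, -0.17 for complex III, -0.03 for complex IV and -0.16 for ATP synthase. In ATP synthase 17 of 18 genes were below 0 and in complex III 8 of 10. Leaving out BTLA low 2 brought the median of the set to -0.01, and leaving out BTLA high 2 to -0.03.

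Groups did not overlap for 16 of the 83 genes. BTLA low lay wholly below BTLA high for 13 of them, 15.7% beside 11.4% of all genes, and wholly above it for 3, 3.61% beside 30.4% of all genes. The 13 were CYC1, UQCR11, UQCRC1 and UQCRFS1 of complex III, ATP5F1B, ATP5MC1, ATP5MC3 and ATP5PB of ATP synthase, NDUFA9, NDUFA10, NDUFA12 and NDUFB5 of complex I, and SDHB. UQCRC1, a core protein of complex III, had 307, 256 and 299 RPM in BTLA low cells, against 358, 365 and 319 RPM in BTLA high cells (log2 difference -0.28 ± 0.09, limma adjusted p = 0.0532). Its partner core protein UQCRC2 had 162, 192 and 169 RPM in BTLA low cells, against 164, 149 and 183 RPM in BTLA high cells, with overlapping groups and a log2 difference of 0.08 ± 0.10 (limma adjusted p = 0.594). The Rieske iron-sulfur protein UQCRFS1 averaged 418 ± 24.8 RPM in BTLA low cells and 475 ± 30.4 RPM in BTLA high cells (SD, n = 3 each), a log2 difference of -0.19 (limma adjusted p = 0.113).

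In complex I, NDUFV2 was the only 1 of 36 genes that passed the test in the sort, and 4 were lower at an unadjusted p under 0.05. NDUFA9, an accessory subunit near the coenzyme Q site, had the smallest p among the lower genes, with 14.2, 11.2 and 12.4 RPM in BTLA low cells, against 15.5, 18.5 and 14.9 RPM in BTLA high cells. Its log2 difference was -0.37 ± 0.14 (limma adjusted p = 0.0769), and other genes cover 100% of its span. The widest of the differences below 0 was that of NDUFS6, a zinc-binding accessory subunit, at -0.45 (limma adjusted p = 0.0953). The core electron-carrying subunits did not share a direction. NDUFS1, the largest of them, had 54.3, 72.7 and 58.9 RPM in BTLA low cells, against 52.8, 43.6 and 65.6 RPM in BTLA high cells, a log2 difference of 0.21 with overlapping groups. NDUFS8, which carries iron-sulfur clusters, averaged 243 ± 37.9 RPM in BTLA low cells and 303 ± 58.8 RPM in BTLA high cells (SD, n = 3 each), a log2 difference of -0.31 that did not pass (limma adjusted p = 0.166).

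The 4 complex II genes, which oxidise succinate and also serve the tricarboxylic acid cycle, did not pass in either experiment by limma (0 of 4 in both, 0 also at an unadjusted p under 0.05). SDHB, the iron-sulfur subunit, had 90.6, 79.3 and 88.5 RPM in BTLA low cells, against 99.4, 99.9 and 93.9 RPM in BTLA high cells (log2 difference -0.18 ± 0.08, limma adjusted p = 0.138). In the knockdown SDHB had 115, 125 and 120.4 RPM in shBTLA cells, against 92.2, 111 and 104 RPM in shControl cells (log2 difference 0.23 ± 0.11, limma adjusted p = 0.506). Its groups thus did not overlap in either experiment, shBTLA above shControl and BTLA low below BTLA high. The membrane anchor SDHC averaged 94.2 ± 6.43 RPM in BTLA low cells and 88.7 ± 9.67 RPM in BTLA high cells (SD, n = 3 each), a log2 difference of 0.09 (limma adjusted p = 0.528). The other anchor, SDHD, differed by -0.09 and the flavoprotein SDHA by -0.10 on the log2 scale in the sort, and by 0.00 and 0.13 in the knockdown.

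In complex IV, 0 of 15 genes passed in the sort, with no gene under an unadjusted p of 0.05. COX4I1 had 689, 512 and 653 RPM in BTLA low cells, against 732, 836 and 581 RPM in BTLA high cells, with overlapping groups and a log2 difference of -0.21 ± 0.14 (limma adjusted p = 0.313). COX5A, which binds next to COX4, had the smallest p among the lower genes, with a log2 difference of -0.15 (limma adjusted p = 0.248). COX7A2, the liver-type COX7A, averaged 95.5 ± 13.1 RPM in BTLA low cells and 95.5 ± 11.4 RPM in BTLA high cells (SD, n = 3 each). COX7A2L, a relative that joins complexes III and IV into supercomplexes, averaged 103 ± 0.864 RPM in BTLA low cells and 101 ± 4.76 RPM in BTLA high cells. The 95% interval of the COX7A2L difference, -0.14 to 0.20, was among the narrowest of the set. NDUFA4L2, the relative of NDUFA4, had 2.99, 1.81 and 2.22 RPM in BTLA low cells, against 1.42, 1.74 and 1.67 RPM in BTLA high cells (log2 difference 0.49 ± 0.23, limma adjusted p = 0.154). The groups did not overlap, at a level of about 2 RPM. NDUFA4 itself averaged 211 ± 28.3 RPM in BTLA low cells and 218 ± 22.5 RPM in BTLA high cells.

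The subunit c genes of ATP synthase were compared because they encode the same mature protein from different precursors. ATP5MC1 passed the test in the sort, as given above. ATP5MC3 had 173, 163 and 182 RPM in BTLA low cells, against 203, 205 and 185 RPM in BTLA high cells, groups that did not overlap, with a log2 difference of -0.20 ± 0.08 (limma adjusted p = 0.0976). ATP5MC2 had 272, 222 and 261 RPM in BTLA low cells, against 276, 290.2 and 237 RPM in BTLA high cells, which overlapped, with a log2 difference of -0.09 ± 0.10 (limma adjusted p = 0.557). The lowest difference among the ATP synthase genes was that of ATP5F1D, the delta subunit of the central stalk, at -0.56 ± 0.19 (limma adjusted p = 0.0526), and its groups overlapped. ATP5F1C, the gamma subunit of the same stalk, averaged 253 ± 10.9 RPM in BTLA low cells and 253 ± 9.89 RPM in BTLA high cells (SD, n = 3 each). ATP5IF1, the inhibitor that binds ATP synthase when the gradient collapses, averaged 63.5 ± 12.3 RPM in BTLA low cells and 64.5 ± 9.74 RPM in BTLA high cells, a log2 difference of -0.03 (limma adjusted p = 0.898).

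**Figure D2:**
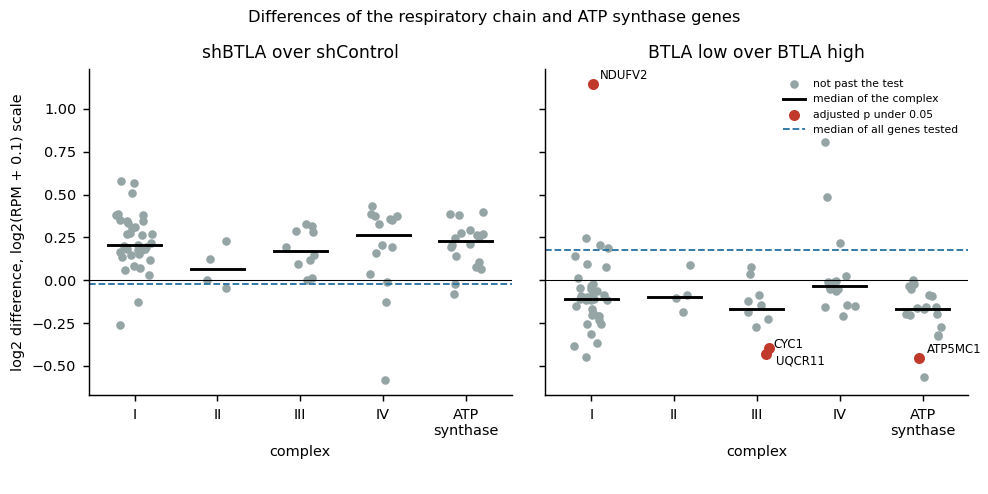
Log2 difference of each gene tested, by complex, for shBTLA over shControl (left) and BTLA low over BTLA high (right). Points are genes, red where the limma adjusted p is under 0.05, black lines are the medians of a complex and the dashed line is the median of all genes tested. The medians of the 5 complexes lie between 0.06 and 0.27 in the knockdown and between -0.17 and -0.03 in the sort.

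In the knockdown, no respiratory gene passed the test. Of 82 genes, 0 were called higher and 0 lower, beside 1.47% of 16630 genes tested (0.782% higher, 0.686% lower). At an unadjusted p under 0.05, 3 were higher and 0 lower, beside 5.4% and 5.36% of all genes, and limma voom also called 0 of them. The 95% interval of the log2 difference lay between -1 and 1 for 72 of 82 genes and between -0.5 and 0.5 for 27, so that a 2-fold difference was outside the interval for most of them. Of the differences, 74 were above 0 and 8 below (90.2% above, beside 46.3% of all genes). The median was 0.20, beside -0.02 for all genes, and the medians by complex were 0.20, 0.06, 0.17, 0.27 and 0.23 for complex I, II, III, IV and ATP synthase in that order.

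This upward position depended on the control libraries. Without shControl 1 the median over the respiratory genes was 0.06, without shControl 2 it was 0.37, and the SD of library medians within groups was 0.24. Per library, 64, 70 and 55 of 82 genes lay above their mean over the experiment in shBTLA 1, 2 and 3, against 10, 65 and 19 in shControl 1, 2 and 3. shControl 2 lay within the range of the shBTLA libraries, and shControl 1 lay below all others. Groups did not overlap for 10 genes, all with shBTLA above shControl, beside 9.14% of all genes for that direction and 8.77% for the other. These were NDUFA5, NDUFA7, NDUFA12, NDUFB4 and NDUFS4 of complex I, SDHB, COX7B and NDUFA4 of complex IV, and ATP5MC2 and ATP5PB of ATP synthase.

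The smallest p in the knockdown was that of COX7B, a small complex IV subunit encoded on the X chromosome. COX7B had 155, 194 and 159 RPM in shBTLA cells, against 105, 151 and 122 RPM in shControl cells. The lowest shBTLA library lay just above the highest shControl library. The log2 difference was 0.43 ± 0.16 (limma adjusted p = 0.343). In the sort COX7B did not pass, with 134, 119 and 141 RPM in BTLA low cells, against 134, 144 and 119 RPM in BTLA high cells, a log2 difference of -0.01 and a 95% interval of -0.23 to 0.21.

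NDUFS4, UQCRB and ATP5MC2 had the smallest p of complex I, complex III and ATP synthase among the genes above 0, and NDUFA4 is another complex IV gene whose groups lay apart. NDUFS4, a complex I subunit needed to complete its NADH-oxidising arm, had 62.9, 66.3 and 60.7 RPM in shBTLA cells, against 38.5, 57.6 and 51.3 RPM in shControl cells (log2 difference 0.38 ± 0.16, limma adjusted p = 0.416). NDUFA4 had 218, 252 and 227 RPM in shBTLA cells, against 151, 216 and 184 RPM in shControl cells (log2 difference 0.35 ± 0.14, limma adjusted p = 0.408). For ATP5MC2 the values were 291, 328 and 302 RPM in shBTLA cells, against 206, 289.7 and 274 RPM in shControl cells (log2 difference 0.27 ± 0.14, limma adjusted p = 0.565). In all these genes shControl 1 was the lowest of the 6 libraries. UQCRB, a coenzyme Q-binding subunit of complex III, differed by 0.32 ± 0.17 with overlapping groups (limma adjusted p = 0.588).

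The 8 genes below 0 in the knockdown included low-level and oppositely varying genes. COX7A1 averaged 0.265 ± 0.0695 RPM in shBTLA cells and 0.449 ± 0.112 RPM in shControl cells (SD, n = 3 each), a log2 difference of -0.58 ± 0.35 (limma adjusted p = 0.643). NDUFA13, a complex I subunit also known as a cell death regulator, averaged 0.884 ± 0.167 RPM in shBTLA cells and 1.15 ± 0.511 RPM in shControl cells, a difference of -0.26 (limma adjusted p = 0.852). ATP5F1D differed by -0.08, SDHC by -0.04, NDUFA4L2 by -0.12, COX7A2L by -0.01, NDUFS1 by -0.13 and ATP5F1B by -0.02 on the log2 scale. CYC1, the gene called with the smallest p in the sort, averaged 463 ± 18.4 RPM in shBTLA cells and 459.8 ± 48.4 RPM in shControl cells, a log2 difference of 0.02 with a 95% interval of -0.23 to 0.26.

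The difference between the experiments was tested directly, as the shBTLA over shControl difference minus the BTLA low over BTLA high difference. By limma, 0 of 82 genes passed, beside 4.83% of 16160 genes (1.15% higher, 3.68% lower). At an unadjusted p under 0.05, 12 were higher and 0 lower, beside 6.13% and 17.2% of all genes. The smallest adjusted p-values were those of NDUFA12 (0.42 ± 0.12, limma adjusted p = 0.0591), CYC1 (0.44 ± 0.13, limma adjusted p = 0.0677), SDHB (0.42 ± 0.12, limma adjusted p = 0.0742) and ATP5PB (0.30 ± 0.10, limma adjusted p = 0.0985). NDUFA12, ATP5PB and SDHB lay wholly higher in shBTLA than in shControl and wholly lower in BTLA low than in BTLA high. The share of all genes with both patterns was not counted, so this cannot be read as particular to the respiratory genes. NDUFA12, an accessory subunit of the NADH-oxidising arm, had 68.9, 73.1 and 71.6 RPM in shBTLA cells, against 57.7, 63.9 and 63.4 RPM in shControl cells. In the sort it had 58.2, 50.6 and 53.1 RPM in BTLA low cells, against 64.4, 61.7 and 60.7 RPM in BTLA high cells. ATP5PB, the peripheral stalk subunit b, had 186, 194 and 195 RPM in shBTLA cells, against 163, 175 and 185 RPM in shControl cells, and 142, 141 and 140.3 RPM in BTLA low cells, against 159, 157 and 154 RPM in BTLA high cells. Without shControl 2, 12 genes passed this test, and without BTLA high 3, 1 gene did. The share of all genes that passed in these fits was not counted, so these counts cannot be read as particular to the respiratory genes.

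Across libraries most of the genes varied together, and they varied with the genes of the cytosolic ribosome. The respiratory genes took 1.20, 1.36 and 1.20% of reads in shBTLA, against 0.933, 1.31 and 1.14% in shControl. In the sort they took 1.06, 0.893 and 1.04% in BTLA low, against 1.13, 1.21 and 1.002% in BTLA high. Cytosolic ribosomal protein genes took 9.69, 11.6 and 9.78% in shBTLA, against 6.98, 11.8 and 9.50% in shControl, and 8.29, 6.48 and 8.05% in BTLA low, against 9.63, 10.6 and 8.09% in BTLA high. shControl 1 and BTLA low 2 were the lowest in both measures. With group means removed, the log2 level of 63 of 82 respiratory genes (76.8%) correlated above 0.8 with the ribosomal protein share over the 12 libraries, with a median r of 0.96. Of 15994 other genes 12.4% did so, with a median r of -0.47. The points share their libraries and read totals, so these values describe the 12 libraries only.

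Of the 82 genes, 11 correlated below 0. NDUFS1 (r = -0.98), ATP5F1B (-0.94), UQCRC2 (-0.93), SDHC (-0.91) and ATP5F1A (-0.81) varied most clearly against the rest. In shControl 1, where most subunits were at their lowest, NDUFS1 was at its highest of the knockdown, with 57.3, 45.6 and 61.7 RPM in shBTLA cells, against 80.2, 43.1 and 60.9 RPM in shControl cells. Subunits of a single complex thus varied in opposite directions between replicates, NDUFS1 against other complex I genes and UQCRC2 against UQCRC1, its partner core protein. Across the respiratory genes, the log2 difference and transcript length had a Spearman's rho of -0.38 in the knockdown (81 genes) and -0.04 in the sort (82 genes), a description over genes measured in the same libraries. In the knockdown, 49 respiratory genes with transcripts under 1000 bases had a median of 0.27, beside 0.17 for 610 other genes of that length, and those of 2000 bases or more (17 genes) a median of 0.14, beside -0.08 for 9837 others. In the sort, the medians were -0.11 under 1000 bases, beside -0.09 for 627 others, and -0.10 at 2000 bases or more, beside 0.20 for 9994 others. The part of length in these differences was not tested.

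With the ribosomal protein share of each library as a covariate, the counts changed. In the knockdown 21 of 82 genes were higher and 1 was lower, beside 8.18% and 7.66% of all genes. In the sort 31 of 83 were higher and 6 were lower, beside 21.0% and 14.9%, and the median of the set turned to 0.16. CYC1 remained lower in BTLA low cells in that fit, at -0.29 on the log2 scale (limma adjusted p = 2.02e-06), whereas COX4I1 was higher at 0.19. The share differed between the sorted groups, 7.61 ± 0.982% in BTLA low and 9.43 ± 1.26% in BTLA high (SD, n = 3 each), so that in 3 against 3 libraries the group and the share can only partly be told apart.

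**Figure D3:**
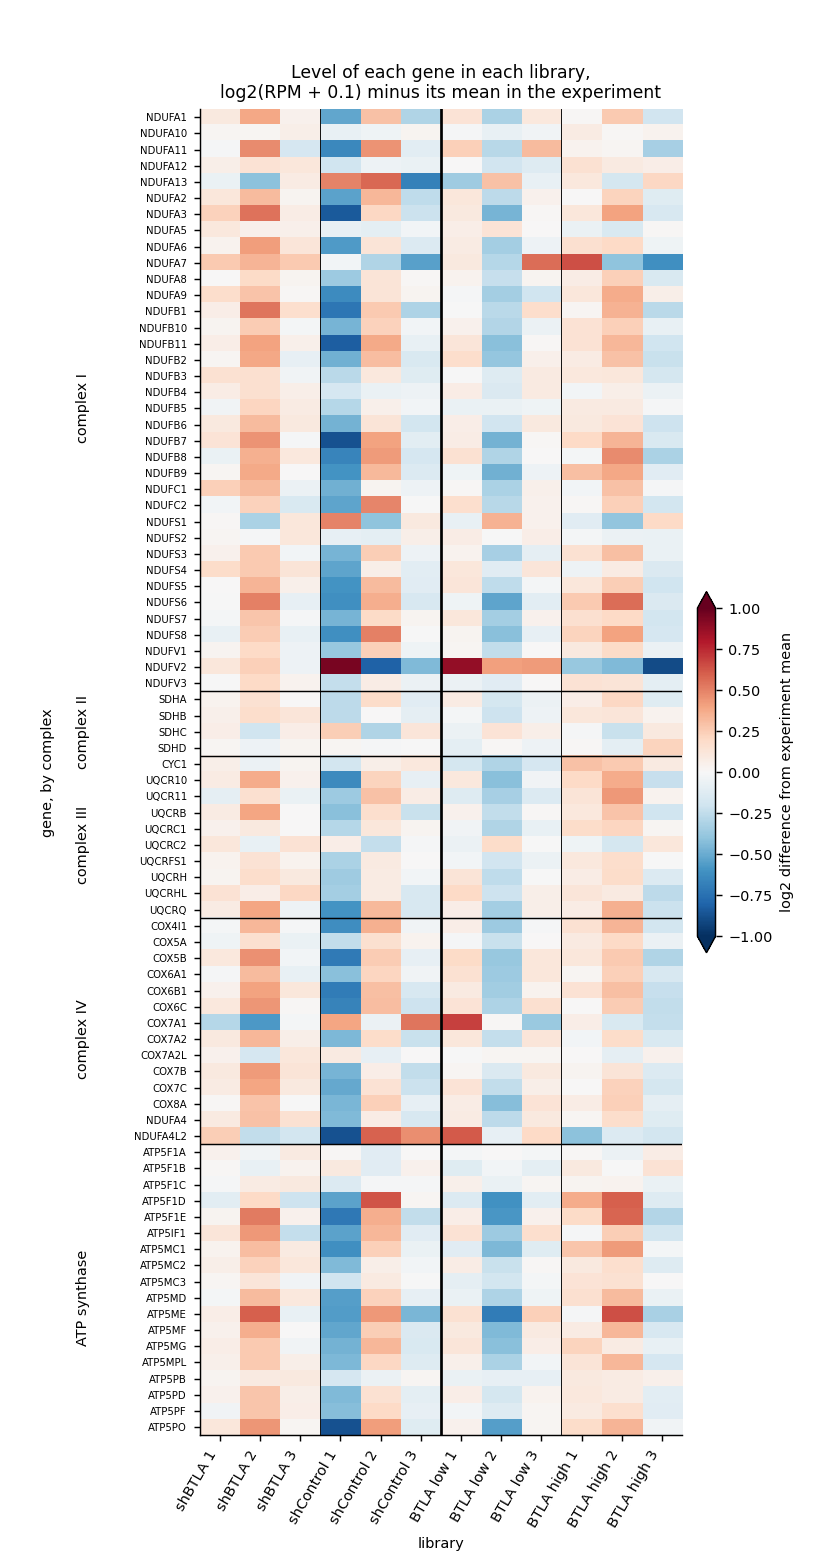
Level of each gene tested in both experiments in each of the 12 libraries, as log2(RPM + 0.1) minus the gene's mean over the 6 libraries of its experiment, ordered by complex. Red is above and blue below that mean, and values beyond 1 in size take the end colours. The columns of shControl 1 and BTLA low 2 are blue for most genes, with 10 of 82 and 10 of 83 genes above the mean, while NDUFS1 and SDHC run the other way.

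**Figure D4:**
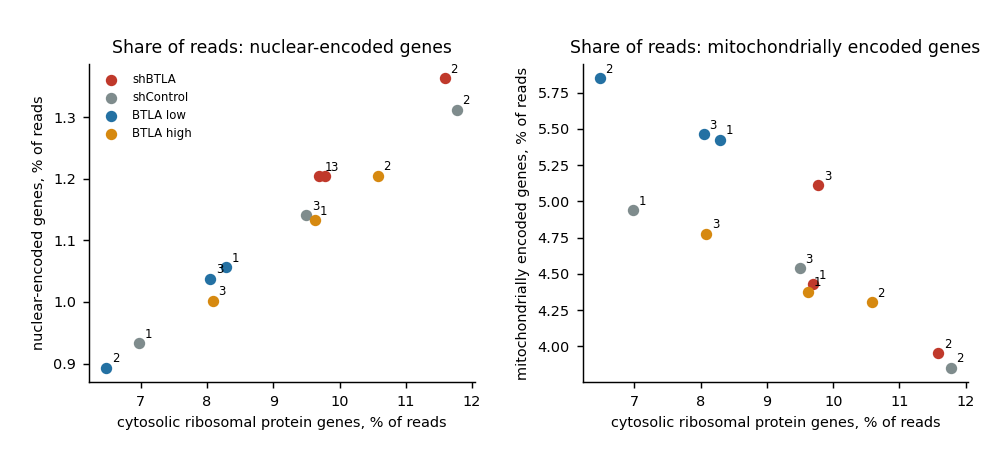
Share of reads of the nuclear-encoded respiratory genes (left) and of the mitochondrially encoded subunits (right), in % of reads, against the share of cytosolic ribosomal protein genes, for the 12 libraries. Numbers are replicates and colours are groups. The nuclear-encoded share runs with the ribosomal protein share, and the mitochondrially encoded share is 5.43 to 5.85% in BTLA low, above 4.30 to 4.78% in BTLA high.

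The mitochondrially encoded subunits did not follow the nuclear-encoded ones in the sort. The 13 mitochondrial mRNAs took 5.43, 5.85 and 5.46% of reads in BTLA low, against 4.38, 4.30 and 4.78% in BTLA high, with no overlap. Of the 13, 7 rose and 0 fell, beside 19.1% and 6.25% of all genes, with a median of 0.29, beside 0.18 for all genes. MT-CO1, the catalytic subunit of complex IV, had 13936, 16518 and 14723 RPM in BTLA low cells, against 9556, 9349.7 and 11293 RPM in BTLA high cells (log2 difference 0.58 ± 0.09, limma adjusted p = 0.00248). MT-CO2 and MT-CO3 of the same complex differed by 0.29 and 0.28 (limma adjusted p = 0.00993 and 0.0121), while MT-ND1 differed by -0.03 without passing. When the median gene of each library was equalised, 1 of the 13 rose and the median was 0.11, and 1 rose without BTLA low 3, without BTLA high 1 or with no filter on low genes. With all 12 libraries in one fit 3 rose. MT-CO1 passed in each of these fits. Of these fits, the share of all genes was counted only for that with medians equalised. MT-CO2 and MT-CO3 did not pass without BTLA low 3, without BTLA high 1 or with no filter on low genes. With medians equalised they differed by 0.11 and 0.10 and did not pass (limma adjusted p = 0.518 and 0.536). MT-CO3 also did not pass with all 12 libraries in one fit (limma adjusted p = 0.0809). In the knockdown 0 of 13 passed by limma, 0 also at an unadjusted p under 0.05, and the share was 4.43, 3.95 and 5.11% in shBTLA, against 4.94, 3.85 and 4.54% in shControl, with overlap.

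Of the regulators of respiratory genes, 1 of 17 rose and 2 fell in the sort, beside 19.1% and 6.25% of all genes, and 7 fell when the median gene of each library was equalised. PPARGC1A, the coactivator of mitochondrial biogenesis, had 0.953, 1.06 and 1.11 RPM in BTLA low cells, against 0.17, 0.141 and 0.126 RPM in BTLA high cells, a log2 difference of 2.22 ± 0.30 at a level near 1 RPM in BTLA low (limma adjusted p = 0.000967). Its relative PPRC1 had 56.4, 63.9 and 51.1 RPM in BTLA low cells, against 87.1, 84.3 and 90.0 RPM in BTLA high cells, a difference of -0.61 ± 0.10 (limma adjusted p = 0.0023). SLIRP, which protects mitochondrial mRNAs, differed by -0.44 (limma adjusted p = 0.0444), and lost its call when any library but BTLA high 3 was left out. PPARGC1A, the 1 regulator that rose, reached the read minimum in the BTLA low libraries only. Its entry into the test thus depended on the group in which it was higher, and its adjusted p does not allow for this. When any BTLA low library was left out, PPARGC1A did not reach the read minimum. With a minimum of 30 reads, or with the deposited RPKM as they stand, it was not tested and 0 regulators rose. The factors NRF1, GABPA, YY1 and TFAM did not pass. In the knockdown 0 of 16 regulators passed by limma, 0 also at an unadjusted p under 0.05.

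Of 20 genes of mitochondrial import and the outer membrane, 0 rose and 8 fell in the sort, beside 19.1% and 6.25% of all genes. Their median was -0.27, beside 0.18 for all genes. VDAC1 (-0.29) and VDAC2 (-0.26), listed as outer membrane genes, were among the 8. TOMM40, the channel of the outer membrane import pore, had 370.2, 316 and 354 RPM in BTLA low cells, against 611, 611 and 496 RPM in BTLA high cells (log2 difference -0.72 ± 0.10, limma adjusted p = 0.00111). Its receptor TOMM22 differed by -0.50 and the inner membrane component TIMM50 by -0.44 (limma adjusted p = 0.00334 and 0.00681). Without BTLA low 2, 5 were called, and without BTLA low 3 or BTLA high 1, 3. Of 77 mitochondrial ribosomal protein genes 1 rose and 18 fell, and of 84 cytosolic ones 0 rose and 20 fell, beside the same 19.1% and 6.25%. These counts changed with single libraries, with 1 lower in both lists without BTLA high 1, and 35 and 71 lower without BTLA high 3. The median of the mitochondrial list was -0.20 with all libraries and -0.24 to -0.17 without single libraries. Of all genes, 35.9% were called without BTLA high 3, and the share was not counted without the other libraries. In the knockdown 0 genes of these lists passed by limma, and at an unadjusted p under 0.05 4 mitochondrial ribosomal protein genes were higher and 0 genes of the other lists differed.

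**Figure D5:**
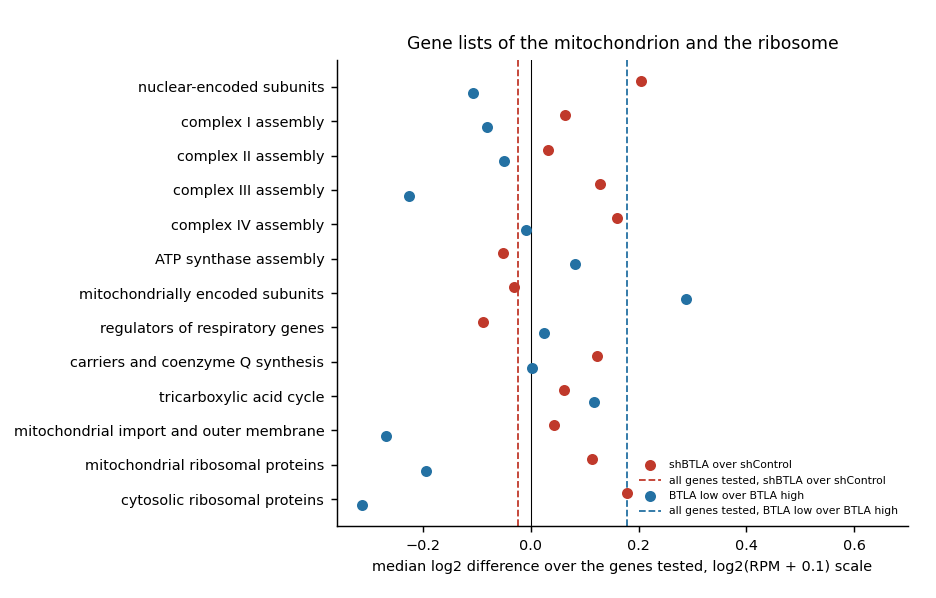
Median log2 difference over the genes tested of each list, for shBTLA over shControl (red) and BTLA low over BTLA high (blue), with the medians of all genes tested as dashed lines. In the sort, the nuclear-encoded subunits (-0.11), the import and outer membrane genes (-0.27) and both sets of ribosomal protein genes lie below 0, and the mitochondrially encoded subunits lie at 0.29.

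Promoters of the respiratory genes were read because many of the genes varied together across libraries. RefSeq windows from 250 bases before to 50 bases after the transcript start (GRCh38.p14) were matched by symbol for 68 of 90 genes. On both strands, the NRF1 motif CGCATGCG was found in 10 of them (14.7%, beside 2.19% of 27305 windows), the ETS motif CCGGAAG in 19 (27.9%, beside 10.7%) and the YY1 motif AAGATGGCG in 8 (11.8%, beside 1.85%). The 27305 windows were not matched to the respiratory genes for GC content or expression. ATP5PF, a peripheral stalk subunit of ATP synthase, was the only window of these genes with all 3 motifs. Shown are this window, those of UQCR11 and ATP5MC1, which were called in the sort, and that of SDHB, whose groups lay apart in both experiments. Of the other genes called in the sort, CYC1 had no matched window. That of NDUFV2 held none of the 3 motifs and is not shown. Capitals mark the 3 motifs, each window is written 5′ to 3′ on the gene's strand, and a match is a description of the letters only.
ATP5PF (chr21:25735005-25735304, - strand): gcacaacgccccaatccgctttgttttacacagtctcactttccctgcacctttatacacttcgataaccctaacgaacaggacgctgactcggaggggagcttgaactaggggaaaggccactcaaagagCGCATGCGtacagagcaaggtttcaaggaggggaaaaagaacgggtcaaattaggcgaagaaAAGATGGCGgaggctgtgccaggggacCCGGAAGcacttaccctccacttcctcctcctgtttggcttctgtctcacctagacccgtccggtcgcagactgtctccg
SDHB (chr1:17053983-17054282, - strand): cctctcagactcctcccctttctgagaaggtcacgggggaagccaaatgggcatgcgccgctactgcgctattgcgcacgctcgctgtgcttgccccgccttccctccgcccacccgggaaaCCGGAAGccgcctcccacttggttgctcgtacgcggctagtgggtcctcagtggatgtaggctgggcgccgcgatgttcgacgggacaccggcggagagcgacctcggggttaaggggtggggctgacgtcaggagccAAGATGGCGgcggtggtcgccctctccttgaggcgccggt
UQCR11 (chr19:1605413-1605712, - strand): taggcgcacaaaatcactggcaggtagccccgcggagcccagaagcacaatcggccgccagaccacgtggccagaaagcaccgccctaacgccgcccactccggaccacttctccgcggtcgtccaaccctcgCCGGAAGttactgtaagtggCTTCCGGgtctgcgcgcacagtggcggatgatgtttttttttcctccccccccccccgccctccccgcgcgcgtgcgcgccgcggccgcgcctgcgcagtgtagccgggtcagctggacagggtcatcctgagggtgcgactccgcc
ATP5MC1 (chr17:48892537-48892836, + strand): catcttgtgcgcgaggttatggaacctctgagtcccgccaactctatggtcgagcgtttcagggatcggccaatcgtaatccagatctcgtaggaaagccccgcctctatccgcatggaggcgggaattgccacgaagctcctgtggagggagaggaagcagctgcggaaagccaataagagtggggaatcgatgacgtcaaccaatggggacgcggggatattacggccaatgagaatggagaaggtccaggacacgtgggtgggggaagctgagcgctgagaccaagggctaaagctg
The UQCR11 window holds CCGGAAG on each strand, SDHB holds the ETS and YY1 motifs, and the ATP5MC1 window holds none of the 3.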

How the data were processed

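Libraries were compared within an experiment only, with groups taken from the labels. Per the labels and the study's methods, the authors trimmed reads (Trim Galore 0.6.6), aligned to GRCh38 (STAR), counted per gene (featureCounts) and deposited RPKM per library. Their deposited tables of edgeR results were used for gene names and positions, and the authors' mean log2 CPM in them as a check of recovered reads. The fold changes and p-values there are the authors' comparisons and were not used. The deposited RPKM had been divided by the genomic span of another gene, which leaves values of a single gene comparable. Undoing this division returned whole reads for 100% of values (tolerance 0.02 of a read; for 1056 genes, COX6A1 among them, the span was searched). RPM were computed from those reads.

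Each experiment was fitted with limma 3.58.1 (R 4.3.3; lmFit, eBayes with trend) on log2(RPM + 0.1). Genes needed 10 reads or more in 3 of 6 libraries, and Benjamini-Hochberg adjustment ran over all genes tested. A gene was called at an adjusted p under 0.05. Folds on this scale understate changes of low genes. The test across experiments used all 12 libraries. Scripts were tested on simulated data. The genes given in full were those with the smallest p per complex and direction, all called genes, and a list by function (complex II, subunit c, isoforms, ATP5IF1, readthrough genes). Others were named after their values were seen. The members and lists were chosen with earlier results of these data known. Lengths are of MANE Select transcripts and promoters are from RefSeq (GRCh38.p14). The alternatives changed the pseudocount, filter, scaling, unit, test, samples in the fit, covariate or replicate block, or left out a library. Python 3.11.15 with pandas 2.3.3 was used.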

Additional observations from a re-analysis of the deposited data

How the results depend on the processing

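The precision is set by 3 libraries a group. Single named genes were followed under 15 alternatives in each experiment and 20 for the difference between them. Of 1283 values, 1220 kept their side of the threshold, 20 lost the call, 32 gained one and 11 turned direction. A turn was counted only where a value was called. Values not called could thus change sign and count as kept, as ATP5F1C in the sort, which ran from -0.17 to 0.09. In the knockdown the number of genes called was 22 with the ribosomal protein share as covariate and 1 with the replicate block, and 0 when any single library was left out. In the sort it was 16 after equalising the median gene of each library, 1 with the deposited RPKM as they stand, 37 with the covariate, 2 with the replicate block and 1 with all 12 libraries in one fit, and 2 to 18 without single libraries, 18 without BTLA high 3 and 2 without each of the others. The median of the sort was -0.28 after that scaling and 0.16 with the covariate, and -0.21 to -0.01 without single libraries. That of the knockdown was 0.06 to 0.37. For the difference between the experiments the count was 1 with a minimum of 30 reads, 1 with the deposited RPKM and 15 with the covariate, and 0 to 12 without single libraries (12 without shControl 2, 1 without BTLA high 3). The share of all genes in these alternative fits of the difference was not counted. Nor was it counted with the replicate block, the deposited RPKM or all 12 libraries in one fit. Of the fits without a single library, it was counted only for the sort without BTLA high 3. Where the share was not counted, a changed count cannot be told apart from a change over all genes.

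The covariate turned the sort difference of ATP5MC2 to 0.16, UQCRB to 0.21, COX7B to 0.19, UQCRC2 to -0.14, NDUFA4 to 0.22, COX4I1 to 0.19, COX7A2 to 0.29 and ATP5IF1 to 0.36, and the difference between experiments of ATP5F1D to -0.20, COX4I1 to -0.15 and ATP5IF1 to -0.31. The cause was not tested. Same-numbered libraries deviated together only in part (correlations 0.22, 0.41 and -0.04 in the knockdown, 0.07, -0.37 and -0.16 in the sort). The labels do not say whether they share more than a number, and these correlations cannot settle it. The block moved the count of calls to 1 of 82 in the knockdown and 2 of 83 in the sort. The share of all genes called with the block was not counted. With the block, the sort calls were 1 of 13 mitochondrially encoded subunits (higher), 3 of 20 import and outer membrane genes, 1 of 77 mitochondrial and 0 of 84 cytosolic ribosomal protein genes (lower), and 0 of 18 tricarboxylic acid cycle genes.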

Other observations

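Among genes that build or feed the chain, a few differed in the sort and 0 in the knockdown by limma, where 1 complex I assembly factor, 1 gene of the tricarboxylic acid cycle and 2 of the carriers and coenzyme Q genes reached an unadjusted p under 0.05. Of 19 complex I assembly factors 0 rose and 4 fell, beside 19.1% and 6.25% of all genes. The count was 0 without BTLA high 1 and 1 without BTLA low 3, fits in which the share of all genes was not counted. The median of the list was -0.09 and -0.11 in these fits, beside -0.08 with all libraries. ECSIT had 55.9, 46.6 and 57.3 RPM in BTLA low cells, against 80.1, 83.4 and 68.1 RPM in BTLA high cells (log2 difference -0.53, limma adjusted p = 0.0089), and NDUFAF4 had 20.4, 15.5 and 16.4 RPM in BTLA low cells, against 26.8, 27.3 and 23.8 RPM in BTLA high cells (-0.58, limma adjusted p = 0.0107). Of the factors for the other complexes, TTC19 (0.49), SDHAF4 (0.58), COA5 (0.46) and DMAC2L (0.38) rose, and UQCC3 (-0.53) and COA7 (-0.46) fell, with limma adjusted p between 0.00561 and 0.0423. By complex, 1 of 4 factors rose for complex II and 1 of 5 for ATP synthase. For complex III 1 of 6 rose and 1 fell, and for complex IV 1 of 23 rose and 1 fell. Among all genes 19.1% rose and 6.25% fell. When the median gene of each library was equalised, SDHAF4, COA5 and DMAC2L lost their calls (limma adjusted p = 0.135, 0.0599 and 0.183). TTC19 passed when any single library was left out. Leaving out single libraries lost the calls of SDHAF4 (4 of 6 libraries, adjusted p up to 0.137), COA5 (4, up to 0.0771), DMAC2L (5, up to 0.136), UQCC3 (4, up to 0.167) and COA7 (2, up to 0.0812), and those of ECSIT (1, 0.0542) and NDUFAF4 (2, up to 0.0597).

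The list of carriers, coenzyme Q genes and subunits outside the name rule held 17 genes. In the sort 2 of them rose and 1 fell, beside 19.1% and 6.25% of all genes. COQ8B (0.40, limma adjusted p = 0.00753) and ETFA (0.22, limma adjusted p = 0.044) rose. ETFA lost its call when any library but BTLA high 3 was left out, and COQ8B without BTLA high 1 (limma adjusted p = 0.0529). When the median gene of each library was equalised, COQ8B differed by 0.22 and ETFA by 0.04. Neither passed (limma adjusted p = 0.115 and 0.673), and with that scaling 0 of the 17 rose and 3 fell. CYCS, which encodes cytochrome c, the carrier that takes electrons from CYC1, had 208, 230.5 and 212 RPM in BTLA low cells, against 281, 258 and 296 RPM in BTLA high cells, a log2 difference of -0.36 ± 0.08 (limma adjusted p = 0.0117; 0.063 without BTLA low 3 and 0.0634 without BTLA high 1). Of 18 genes of the tricarboxylic acid cycle and pyruvate dehydrogenase 2 rose and 0 fell, beside 19.1% and 6.25% of all genes. Without BTLA low 3 or without BTLA high 1, 0 rose, and the share of all genes was not counted there. Both genes that rose encode parts of pyruvate dehydrogenase. PDHB had 55.7, 61.7 and 58.2 RPM in BTLA low cells, against 39.3, 43.4 and 47.4 RPM in BTLA high cells (0.44, limma adjusted p = 0.0114). PDHX differed by 0.34 (limma adjusted p = 0.0363). Without BTLA low 3 and without BTLA high 1 the adjusted p of PDHB was 0.0535 and 0.0678. PDHX lost its call when any library but BTLA high 3 was left out (adjusted p 0.0849 to 0.118) and differed by 0.16 (adjusted p = 0.186) when the median gene of each library was equalised. In the knockdown PDHB had 45.7, 41.3 and 51.4 RPM in shBTLA cells, against 38.4, 37.6 and 36.6 RPM in shControl cells, a log2 difference of 0.29 (limma adjusted p = 0.426).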
